A study of Mus musculus with 4 samples.

Results

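The phagocyte NADPH oxidase is described here through 5 of its subunit genes, Cybb, Cyba, Ncf1, Ncf4 and Rac2, in the RNA of mouse T cells. They were picked by symbol as subunits of that enzyme. All 5 have a row among the 24768 usable genes of the deposited table, and all 5 passed the filter for testing, a mean of at least 1 FPKM over the 4 libraries. FPKM relates fragments to the length of the gene and the size of the library, so levels of different genes can be set side by side. Cybb owes its place to the Tbx21-KO libraries alone, since it lay under 1 FPKM in both WT libraries.

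The series compared cDNT cells labelled Tbx21-KO (2 libraries) with WT cDNT cells (2 libraries), and its title asks what T-bet, the factor encoded by Tbx21, does in double-negative T cells. The design text speaks of a knockdown where the labels say KO, and the labels used here give no strain, age, way of deletion or culture, nor do they say whether the libraries of a group came from separate mice. P-values therefore reflect only how far the libraries of a group differ, which may be technical. The FPKM values imply totals of 23342240 to 24966961 reads per library.

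The oxidase is a membrane enzyme that moves electrons from NADPH across the membrane onto oxygen and so makes superoxide. Its catalytic core is a pair of membrane proteins, gp91phox (Cybb) and p22phox (Cyba). In resting phagocytes the cytosolic proteins p47phox (Ncf1) and p40phox (Ncf4) stay apart from that core and join it, with a Rac GTPase, upon stimulation. Neutrophils use it to kill microbes, and inherited loss of its subunits causes chronic granulomatous disease. T cells use several of the same proteins, and Rac2 and the Cyba product also serve other enzymes and pathways.

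In this comparison 4 of the 5 genes were higher in Tbx21-KO cells and Rac2 was not called (limma on log2(FPKM + 1), Benjamini-Hochberg adjusted p under 0.05 over all 11013 genes tested). Among all genes tested 30.1% were called higher and 23.0% lower, so a call by itself is common here. The sizes differed widely: Cybb was 88.8-fold and Ncf1 4.64-fold higher, whereas Ncf4, Cyba and Rac2 stood at 1.38, 1.16 and 1.07 times their WT means. In all 5 genes both Tbx21-KO libraries lay above both WT libraries, as they did in 43.7% of all genes tested, while in 35.3% both lay below. The median log2 fold change of the 5 was 0.46, against 0.04 over all genes tested.

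Tbx21 itself was at 2.29 and 2.41 FPKM in Tbx21-KO cells, against 13.2 and 11.7 FPKM in WT cells. T cell markers were present in every library: all 15 measured ones were at 1 FPKM or more, and their summed level was 1458 and 1491 FPKM in Tbx21-KO cells and 2051 and 2153 FPKM in WT cells. Granulocyte transcripts set the libraries apart. The 14 granulocyte markers summed to 10562 and 10871 FPKM in Tbx21-KO cells, against 10.2 and 13.1 FPKM in WT cells, where 3 of them were at 0 in WT 1 and none in WT 2. The 8 measured macrophage and monocyte markers summed to 302.6 and 325.1 FPKM in Tbx21-KO cells and 35.2 and 37.2 FPKM in WT cells, with none at 0. The 7 measured mast cell, basophil and eosinophil markers summed to 452.0 and 446.2 FPKM in Tbx21-KO cells and 23.98 and 24.7 FPKM in WT cells, and none was at 0. Kit, a receptor of mast cells and progenitors, went against that list, at 10.99 and 11.2 FPKM in Tbx21-KO cells and 18.05 and 17.2 FPKM in WT cells (log2 fold change -0.62, limma adjusted p = 0.000616), and without it the sums were 441.02 and 434.9 FPKM in Tbx21-KO cells and 5.94 and 7.51 FPKM in WT cells. The 8 measured dendritic cell markers summed to 38.002 and 39.5 FPKM in Tbx21-KO cells and 11.6 and 13.03 FPKM in WT cells, with 1 or 2 at 0 in each library. The MHC class II genes H2-Aa and H2-Eb1, which other cells share, carried that difference: the other 6 summed to 2.48 and 2.82 FPKM in Tbx21-KO cells and 2.99 and 3.47 FPKM in WT cells. The 5 measured B cell markers summed to 75.6 and 71.9 FPKM in Tbx21-KO cells and 39.1 and 41.1 FPKM in WT cells, with none at 0, and of these Igkc was at 36.7 and 33.3 FPKM in Tbx21-KO cells and 5.80 and 6.62 FPKM in WT cells. The part of these cell types in the levels of the oxidase genes was not tested. The libraries hold RNA of all cells together, so more cells of a type and more RNA per cell cannot be told apart.

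**Figure D1:**
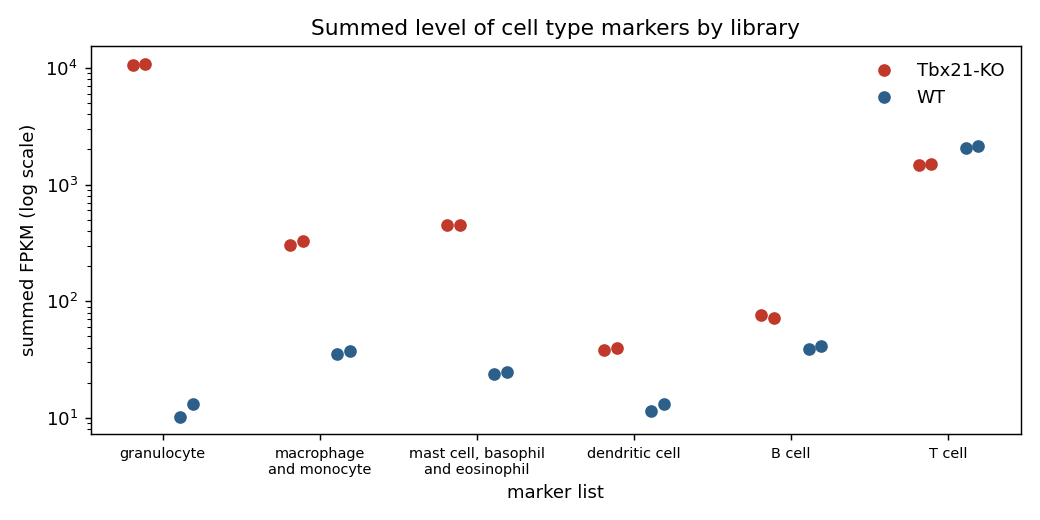
Summed FPKM (log axis) of the markers of 6 kinds of cell, 1 point per library, Tbx21-KO left of WT. The granulocyte sum is at 10562 FPKM or more in both Tbx21-KO libraries and at 13.1 FPKM or less in both WT libraries, while the T cell sum is lower in Tbx21-KO.

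Cybb (ENSMUSG00000015340, protein-coding, GRCm38 chromosome X, 9435252 to 9487771, minus strand) encodes gp91phox, also called NOX2, which carries the haem and flavin groups of the enzyme. It was at 35.5 and 35.6 FPKM in Tbx21-KO 1 and 2, against 0.379 and 0.421 FPKM in WT 1 and 2. The WT values correspond to 55 and 59 reads, and those of Tbx21-KO to 4808 and 4974 reads. The WT level is low but was not 0 in either library, and the libraries of each group lay close together. The log2 fold change was 4.71 (SE 0.05, limma adjusted p = 3.99e-06), and 37 of the 11013 genes tested had a larger one. This scale understates a gene that is so low in WT, and with voom on the recovered reads the value was 6.47.

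Among the genes of the table ranked by level, Cybb held places 1509 and 1497 in Tbx21-KO 1 and 2 and places 12484 and 12324 in WT 1 and 2. Of the 5 genes it was the lowest in each library.

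Cyba (ENSMUSG00000006519, protein-coding, GRCm38 chromosome 8, 122424776 to 122432930, minus strand) encodes p22phox, the small membrane partner that holds gp91phox stable and anchors p47phox. It was abundant in every library, at 242 and 246 FPKM in Tbx21-KO cells and 202 and 217 FPKM in WT cells. The spread between the WT libraries was 14.4 FPKM, and the gap between the groups was larger, 24.7 FPKM from the highest WT to the lowest Tbx21-KO library. On the log2 scale the difference of 0.22 (SE 0.05, limma adjusted p = 0.0172) is small, and 32.8% of the genes tested had a larger one. Cyba was no longer called with median-of-ratios scaling (log2 fold change 0.10, limma adjusted p = 0.132). Without Tbx21-KO 1 or Tbx21-KO 2 the log2 fold change was 0.23 and 0.20 and not called (limma adjusted p = 0.0831 and 0.101), in fits where the spread comes from the WT pair and the lone Tbx21-KO library is assumed to vary likewise. The annotated gene Gm20388 spans Cyba on the other strand but shares none of its exon bases.

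The membrane pair was thus far from equal in WT cells. The level of Cyba was 534 and 515 times that of Cybb in WT 1 and 2, and 6.81 and 6.90 times in Tbx21-KO 1 and 2, as Cybb reached 14.7% and 14.5% of the Cyba level there, against 0.187% and 0.194% in WT.

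Ncf1 (ENSMUSG00000015950, protein-coding, GRCm38 chromosome 5, 134220053 to 134229625, minus strand) encodes p47phox, the organizer that brings the cytosolic subunits to the membrane once it is phosphorylated. It was at 70.6 and 69.8 FPKM in Tbx21-KO cells, against 15.5 and 14.8 FPKM in WT cells. Unlike Cybb it was well expressed in WT, with 1413 and 1307 reads behind those values. The log2 fold change was 2.14 (SE 0.04, limma adjusted p = 1.39e-05), and 2.46% of the genes tested had a larger one. Of its 3663 exon bases, 408 are also exon of Gtf2ird2 on the other strand, and the labels do not say whether counting used strand, so some reads could belong to that gene.

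Ncf4 (ENSMUSG00000071715, protein-coding, GRCm38 chromosome 15, 78244801 to 78262580, plus strand) encodes p40phox, which binds a phosphoinositide of phagosome membranes. Its level was 64.6 and 62.5 FPKM in Tbx21-KO cells, against 44.9 and 47.3 FPKM in WT cells. The groups did not overlap and the log2 fold change was 0.46 (SE 0.04, limma adjusted p = 0.0013), which 18.6% of the genes tested exceeded.

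The order of the pair of cytosolic genes turned. The level of Ncf1 was 1.09 and 1.12 times that of Ncf4 in Tbx21-KO cells and 0.344 and 0.313 times in WT cells.

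Rac2 (ENSMUSG00000033220, protein-coding, GRCm38 chromosome 15, 78559167 to 78572783, minus strand) encodes the Rac GTPase of blood cells, which serves the oxidase in neutrophils and actin remodelling and signalling in T cells. It was the most abundant of the 5 in every library, at 344 and 349 FPKM in Tbx21-KO cells and 318 and 327 FPKM in WT cells. The groups did not overlap, but the log2 fold change of 0.10 (SE 0.04) was not called (limma adjusted p = 0.0789). It turned to -0.01 with median-of-ratios scaling and to 0.59 (limma adjusted p = 7.71e-05) when the levels of T cell markers set the scale, and voom on recovered reads called a value of 0.11 (adjusted p = 0.0246). Its direction is therefore not settled by these libraries.

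Rac1, the close relative of Rac2 that most cell types express, was at 67.0 and 68.1 FPKM in Tbx21-KO cells and 63.7 and 64.1 FPKM in WT cells, and was not called (log2 fold change 0.08, limma adjusted p = 0.123). The level of Rac2 was 5.13 times that of Rac1 in each Tbx21-KO library and 4.99 and 5.10 times in WT 1 and 2. Both fold changes lay close to the median of all genes tested. Reads from stretches that the Rac genes share could be split between them.

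**Figure D2:**
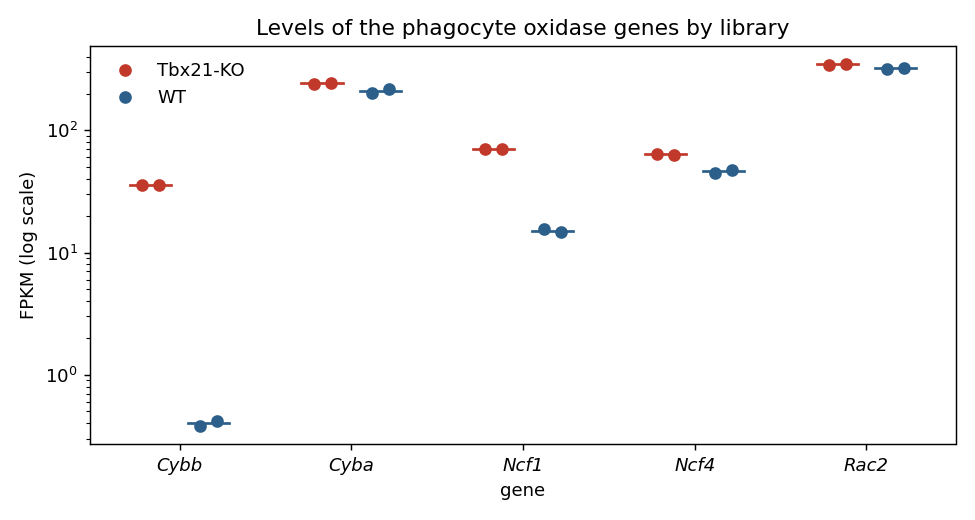
FPKM (log axis) of the 5 oxidase genes in each library, Tbx21-KO left of WT, with 1 point per library and a bar at the mean of 2. Cybb is under 1 FPKM in both WT libraries, while Cyba and Rac2 are above 200 FPKM in all 4.

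In order of level, the 5 genes ran Rac2, Cyba, Ncf1, Ncf4 and Cybb in Tbx21-KO cells and Rac2, Cyba, Ncf4, Ncf1 and Cybb in WT cells. In each group these neighbours lay further apart than the libraries of the group. The narrowest step was that between Ncf1 (70.2 ± 0.51 FPKM) and Ncf4 (63.6 ± 1.49 FPKM) in Tbx21-KO cells (SD, n = 2 each). Rac2 and Cyba together made up 77.4% and 78.0% of the summed FPKM of the 5 in Tbx21-KO 1 and 2 and 89.6% and 89.7% in WT 1 and 2. The summed level itself was 756 and 763 FPKM in Tbx21-KO cells and 581 and 606 FPKM in WT cells.

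On the linear scale the genes stood much closer to each other than in fold. The Tbx21-KO mean exceeded the WT mean by 55.1 FPKM for Ncf1, by 35.1 FPKM for Cybb, by 34.0 FPKM for Cyba, by 24.01 FPKM for Rac2 and by 17.5 FPKM for Ncf4. Cybb and Cyba thus differed by about the same amount, on WT means of 0.40 and 210 FPKM. For the abundant genes this amount rests on the scaling. With median-of-ratios scaling it was 33.6 FPKM for Cybb but 16.3 FPKM for Cyba and -2.04 FPKM for Rac2. With the T cell marker list scaling it was 42.5 FPKM for Cybb, 113 FPKM for Cyba and 140.0 FPKM for Rac2.

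**Figure D3:**
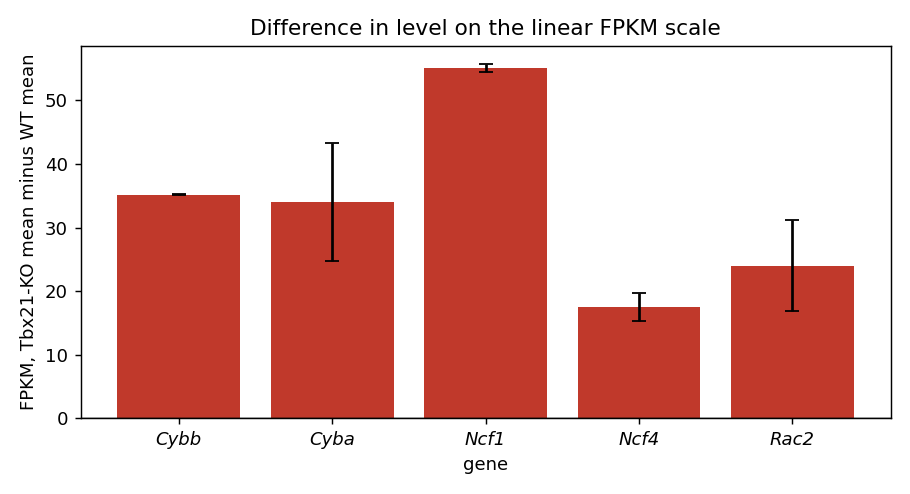
Tbx21-KO mean minus WT mean in FPKM for the 5 genes, as deposited. Whiskers run from the smallest to the largest difference between a Tbx21-KO and a WT library, and all lie above 0, and the bars run from 17.5 FPKM for Ncf4 to 55.1 FPKM for Ncf1.

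**Figure D4:**
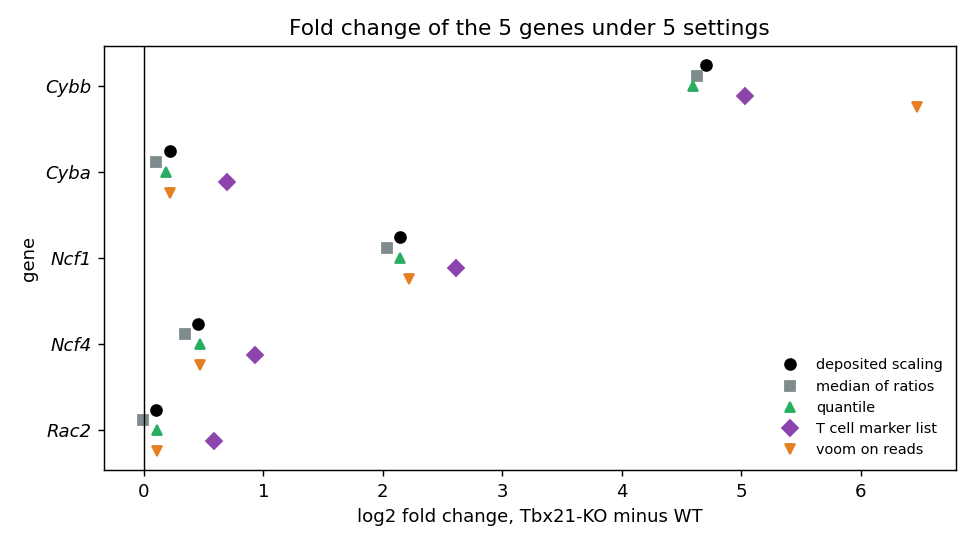
Log2 fold change, Tbx21-KO minus WT, of the 5 genes with the deposited scaling, 3 other scalings and voom on recovered reads. Cybb, Cyba, Ncf1 and Ncf4 stay to the right of 0 under all 5 settings, though Cyba is not called with median-of-ratios scaling. Rac2 lies at -0.01 with that scaling.

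RefSeq promoter windows on GRCm38.p6, which hold 250 bases before and 50 after the annotated start, were at hand for 3 of the 5 genes, Cybb, Cyba and Ncf1. The 250 upstream bases are shown because these genes differ so much in WT level and in fold: Cybb is the lowest in WT, Cyba is abundant and Ncf1 is in between. Each is written 5′ to 3′ on the gene's strand, the minus strand for all 3, with motif matches in capitals.
Cybb, chrX:9469325-9469574: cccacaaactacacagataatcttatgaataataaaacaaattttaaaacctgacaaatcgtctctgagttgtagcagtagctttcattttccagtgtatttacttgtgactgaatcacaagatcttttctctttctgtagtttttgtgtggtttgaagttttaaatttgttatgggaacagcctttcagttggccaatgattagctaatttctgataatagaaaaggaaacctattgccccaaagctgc
Ncf1, chr5:134229626-134229875: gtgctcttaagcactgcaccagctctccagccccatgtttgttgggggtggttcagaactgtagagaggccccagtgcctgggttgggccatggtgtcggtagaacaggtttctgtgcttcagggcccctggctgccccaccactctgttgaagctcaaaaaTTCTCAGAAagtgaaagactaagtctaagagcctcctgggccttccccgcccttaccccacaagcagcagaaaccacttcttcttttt
Cyba, chr8:122432941-122433190: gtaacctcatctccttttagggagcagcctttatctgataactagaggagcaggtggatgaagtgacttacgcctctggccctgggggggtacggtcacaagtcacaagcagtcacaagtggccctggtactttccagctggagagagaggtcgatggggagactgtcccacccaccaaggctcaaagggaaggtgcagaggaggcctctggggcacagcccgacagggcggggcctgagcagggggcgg
The upstream stretch of Cybb is poor in G and C, at 34.0%, against 54.4% for Ncf1 and 60% for Cyba. The RefSeq start of Cybb lies inside the longer gene span of the GENCODE annotation given above.

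Motifs of 3 kinds were searched on both strands of the whole windows, with no overlap between matches. The purine-rich core GAGGAA is bound by PU.1, a factor of the ETS family that drives myeloid genes, and by its relatives. It occurs in 28.3% of all 32851 promoter windows and had 1 match here, in Cybb, on the opposite strand and starting 10 bases into the transcript when the start is base 1. That site is shown with its flanks.
Cybb site, chrX:9469300-9469325: ctgttttcatTTCCTCatcagaagaa
The GAS element TTCNNNGAA, known from interferon gamma responses, occurs in 8.30% of windows and had 1 match, in Ncf1, starting 88 bases before the start and in capitals in the stretch above. The T-box half-site GGTGTGA, the kind of sequence T-bet binds, occurs in 3.98% of windows and had no match in these 3. These are matches of letters, and binding was not measured.

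The transcription factors known to act on oxidase genes in myeloid cells moved in both directions. Of 9 described, 5 were higher and 4 lower, beside 30.1% and 23.0% of all genes tested. Of the 5, Spi1, Cebpa, Cebpb and Cebpe lay under 1 FPKM in both WT libraries and so, like Cybb, could be tested only through their Tbx21-KO level, which leaves Irf1 as the 1 that could be called in either direction. Spi1, which encodes PU.1, was at 34.2 and 33.1 FPKM in Tbx21-KO cells, against 0.253 and 0.384 FPKM in WT cells, which is 4.72 on the log2 scale (SE 0.07, limma adjusted p = 8.21e-06). That is nearly the value of Cybb on this scale, which understates low genes. As ratios of group means, Spi1 was 106-fold and Cybb 88.8-fold higher. Cebpa was at 25.7 and 26.9 FPKM in Tbx21-KO cells and 0.213 and 0.0629 FPKM in WT cells, and Cebpe, a factor of granule formation in neutrophils that is also in the granulocyte list, at 36.5 and 38.1 FPKM in Tbx21-KO cells and 0 and 0.0335 FPKM in WT cells. Irf1 and Cebpb were higher by 0.38 and 1.02 on the log2 scale.

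Irf8, an interferon-regulated factor that takes part in Cybb transcription in myeloid cells, went the other way. It was at 29.5 and 31.2 FPKM in Tbx21-KO cells, against 55.5 and 53.0 FPKM in WT cells, a change of -0.82 on the log2 scale (SE 0.05, limma adjusted p = 0.000282) that kept its sign under each scaling. Rela, Nfkb1 and Elf1 had log2 fold changes of -0.24, -0.22 and -0.18, a size at which the T cell marker list scaling turned all 3 to higher. Their calls were also lost in 1, 2 and 7 other fits. For Rela and Nfkb1 these were fits with a single Tbx21-KO library, with values of -0.20 for Rela and of -0.22 and -0.21 for Nfkb1, about as large as with all 4 libraries. For Elf1 the values ran from -0.20 to -0.12.

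Among other genes of the oxidase family and its partners, most of those with a row were too low to be tested. Of 13 listed genes 9 have a row and 3 were tested. Cybc1, whose product keeps the gp91phox and p22phox pair stable, was at 17.01 and 17.8 FPKM in Tbx21-KO cells and 12.6 and 13.1 FPKM in WT cells, a log2 fold change of 0.41 (limma adjusted p = 0.00234). Hvcn1, the proton channel that balances the charge the oxidase moves, was at 5.10 and 4.87 FPKM in Tbx21-KO cells and 1.48 and 1.86 FPKM in WT cells, a log2 fold change of 1.17 (limma adjusted p = 0.000734). The other catalytic subunits with a row, Nox1, Duox1 and Duox2, and the helpers Noxo1, Noxa1 and Duoxa1 had too low a level to be tested, with none above 0.540 FPKM in any library. Cybb was therefore the only catalytic subunit measured here at 1 FPKM or more in any library. Rap1a, Nox3, Nox4 and Duoxa2 were not analysed here.

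Genes that switch the complex on moved both ways. Of 16 tested kinases, exchange factors and other regulators, 8 were higher, 4 lower and 4 not called. Among all genes tested the shares higher and lower were 30.1% and 23.0%. Syk and Pak1, whose changes were the largest, lay under 1 FPKM in both WT libraries and could be tested only through their Tbx21-KO level. The tyrosine kinase Syk, which acts below Fc receptors and integrins, was at 8.76 and 8.80 FPKM in Tbx21-KO cells, against 0.578 and 0.549 FPKM in WT cells, a log2 fold change of 2.65. Pak1 and Prkcd, kinases that phosphorylate p47phox, were higher by 2.38 and 1.14, and the exchange factors Tiam1 and Vav2 by 1.35 and 0.71. Vav3, another exchange factor, had a log2 fold change of -0.64. Pik3cd, Prkca and Prex1, chosen after their values were seen, were also lower, with log2 fold changes of -0.57, -0.52 and -0.39, and of these 4 only Vav3 was still called lower with the T cell marker list scaling. Vav1, Dock2, Pik3cg and Arhgdib, also chosen after their values were seen and active in lymphocytes, did not pass the test at values of -0.08, -0.01, -0.03 and -0.01 on the log2 scale, and all 4 were called higher with that scaling.

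Genes listed for the supply of NADPH, the electron donor of the oxidase, were nearly all higher. Not all of them encode an enzyme that makes NADPH itself. Of 8 tested 7 were higher and 1 lower, against 30.1% higher and 23.0% lower among all genes tested. Their median log2 fold change was 0.87. Me1, the cytosolic malic enzyme, was at 19.97 and 20.03 FPKM in Tbx21-KO cells, against 3.27 and 3.16 FPKM in WT cells, or 2.32 higher on the log2 scale (SE 0.05, limma adjusted p = 1.74e-05). Idh2 and Idh1, the NADP-linked isocitrate dehydrogenases, were higher by 1.79 and 1.75 and the pentose phosphate enzymes G6pdx, Pgd, Taldo1 and Tkt by 0.89, 0.85, 0.46 and 0.30. The same 7 genes were called higher with each scaling, and Me2, the mitochondrial malic enzyme, had a log2 fold change of -0.42 that turned to 0.05 with the T cell marker list scaling. Nnt was too low to be tested.

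Genes listed for the removal of superoxide and peroxide were more mixed, with 10 of 23 tested higher, 4 lower and 9 not called. Over all genes tested 30.1% were higher and 23.0% lower, not far from these counts. Not every gene on the list encodes an enzyme that acts on superoxide or peroxide directly. Among its tested superoxide dismutases, catalase, glutathione peroxidases and peroxiredoxins, most were called higher, Prdx1 alone lower and the rest not called. That split was made after the values were seen. The list's median log2 fold change was 0.14, against 0.04 over all genes tested. Gpx3 and Gpx1, glutathione peroxidases, were higher by 3.17 and 2.30 on the log2 scale. Gpx3 was at 11.3 and 9.85 FPKM in Tbx21-KO cells and 0.199 and 0.366 FPKM in WT cells, and passed the filter only through Tbx21-KO. Gpx1 was at 214 and 215 FPKM in Tbx21-KO cells and 39.5 and 46.6 FPKM in WT cells. Prdx4, Gsr, Prdx5 and Prdx2 were higher by 1.83, 0.90, 0.89 and 0.75. Prdx1, Txnrd1, Txn1 and Txn2, chosen after their values were seen, were lower, with log2 fold changes of -0.62, -0.31, -0.27 and -0.21, and of these Prdx1 alone was not turned by the T cell marker list scaling. The calls of Txn1 and Txn2 were also lost in 3 and 2 other fits, with values of -0.33 to -0.22 for Txn1 and of -0.21 for Txn2.

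**Figure D5:**
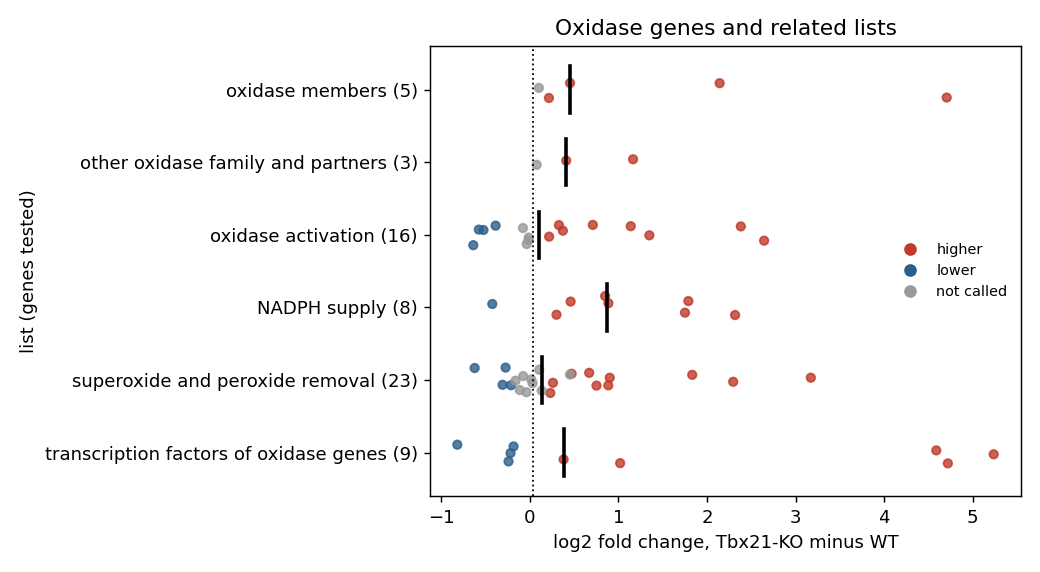
Log2 fold change, Tbx21-KO minus WT, of each tested gene of the 5 oxidase genes and 5 related lists, coloured by its call, with a black bar at the list's median and a dotted line at the median of all genes tested (0.04). NADPH supply has 7 of 8 genes to the right of 0, oxidase activation has genes on both sides, and the points include 1 oxidase gene, 2 activation genes, 1 removal gene and 4 transcription factors tested only through their Tbx21-KO level.

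Beside these lists stand the levels of single defining markers in the same libraries. S100a9 and Elane of granulocytes were at 3856 and 4068 FPKM and at 1087 and 1057 FPKM in Tbx21-KO cells, against 2.38 and 2.30 FPKM and 0.0814 and 0.548 FPKM in WT cells. Mpo, the peroxidase that turns the oxidase's products into hypochlorous acid in neutrophils, was at 118 and 111 FPKM in Tbx21-KO cells and 0.140 and 0.145 FPKM in WT cells. Lyz2 and Cd14 of the macrophage and monocyte list had log2 fold changes of 5.62 and 3.31, and Cpa3 of mast cells and basophils 3.52. Of these, Lyz2 is shared by other cells. Csf1r, the macrophage growth factor receptor, was at 1.86 and 1.70 FPKM in Tbx21-KO cells and 0.172 and 0.136 FPKM in WT cells. Cd3e and Trac of T cells were lower, with log2 fold changes of -0.49 and -0.88. With the T cell marker list scaling Cd3e was not called, at -0.016. Cd3e is itself on that list, so this fit cannot test its change. Of the 15 T cell markers tested, 11 were called lower, 1 higher and 3 not called. Over all genes tested the shares were 23.0% lower and 30.1% higher. Cd5 was the marker called higher (log2 fold change 0.53, limma adjusted p = 0.015). In which cells the oxidase transcripts lay was not tested.

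The genes whose pattern over the 4 libraries lay nearest to each of the 5 were found by the Euclidean distance between log2(FPKM + 1) values centred on each gene's mean. For Cybb they were Wfdc21 (distance 0.06), at 26.2 and 26.9 FPKM in Tbx21-KO cells and 0.0923 and 0.0955 FPKM in WT cells, and Spi1 (distance 0.08). For Ncf1 they were Csgalnact1 and Dkk3, for Ncf4 Pomgnt1 and Map3k8, for Cyba Akr1a1 and Nckap5l, and for Rac2 Suds3 and Scaper, with distances from 0.01 to 0.04. This scale understates low genes, so a small distance need not mean a like fold. Wfdc21 was 283-fold higher beside 88.8-fold for Cybb, and Dkk3 10.3-fold beside 4.64-fold for Ncf1.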

How the data were processed

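RNA of 4 mouse T cell libraries was sequenced. The authors deposited 1 table of FPKM values per gene and library. The builds GRCm38 and mm10 come from the submitters' processing notes. For the aligner, counter and strand setting, nothing is stated in the labels or the file header. The last of its 24769 rows breaks off and was left out, and rows after it may be missing. Shares of all genes cover only the rows present. Of the remaining IDs 24720 matched a symbol of GENCODE M21 and 48 did not. With exon lengths of that annotation, 96.8% to 97.3% of values under 20 reads came out whole within 0.1 read, which gave the library totals and read numbers. Totals need not be the full depth.

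Genes with a mean of at least 1 FPKM were tested as log2(FPKM + 1), a scale that understates low genes, with limma 3.58.1 (R 4.3.3) and a variance trend, Tbx21-KO minus WT. The fit was tested on simulated data. An exact permutation test of 2 libraries against 2 cannot reach the threshold and was not used. In all 15 alternatives were run. The members, lists and alternatives were chosen with earlier results of these data known. The text names the members, the tested genes of oxidase lists of up to 14 genes, the 6 largest called changes of longer ones, chosen defining markers and the 2 nearest profiles per member. Other genes of the lists enter counts and sums without being named. Beyond these, a few genes and 1 list are not reported here.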

Additional observations from a re-analysis of the deposited data

How the results depend on the processing

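Cybb, Ncf1 and Ncf4 were called higher under every alternative that could be fitted, with log2 fold changes of 2.91 to 6.47, 1.90 to 2.61 and 0.34 to 0.93. Cybb has no value when genes under a mean of 1 FPKM in WT are left out. Cyba was not called without a filter on low values (log2 fold change 0.22, adjusted p = 0.0566) or with median-of-ratios scaling (0.10). Leaving out 1 library at a time gave 0.17 to 0.27 for Cyba, not called without either Tbx21-KO library, and 0.08 to 0.12 for Rac2, not called in any of the 4 fits. Rac2 was called with the T cell marker list scaling (0.59) and with voom on recovered reads (0.11). Of the 5 genes, 3 to 5 were called higher and none lower across all settings. All 5 were called higher with the T cell marker list scaling and with voom on recovered reads. Over all genes, the T cell marker list scaling gave 8166 higher and 498 lower of 11013 tested, so a higher call there is common. Voom gave 3733 higher and 2778 lower of 11005. With a mean FPKM of at least 5 required, 2018 were higher and 2171 lower of 7032. The share of calls that were higher was 56.7% as deposited, 43.0% with median-of-ratios scaling, 39.6% after quantile normalization and 94.3% with the T cell marker list scaling. The median over all genes shifted by -0.10, -0.13 and 0.42 (log2) under these 3.

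The T cell marker list scaling turned the sign of 12 named genes that were called with it or as deposited, to log2 fold changes of 0.055 for Me2, 0.25 for Nfkb1, 0.24 for Rela, 0.29 for Elf1, 0.077 for Prex1, 0.40 for Vav1, 0.46 for Dock2, 0.42 for Pik3cg, 0.47 for Arhgdib, 0.21 for Txn1, 0.25 for Txn2 and 0.16 for Txnrd1. The shift of the median by 0.42 is larger than most of these genes' deposited values. Same-numbered libraries did not deviate together (correlation across genes -0.025), so the numbers are not taken to pair them. With the replicate block Cybb was at 4.71 (adjusted p = 7.5e-05) and 4 of the 5 genes were called higher, as without it.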

Other observations

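Ncf4 and Rac2 lie on the same stretch of GRCm38 chromosome 15, with 296586 bases between them. Of 17 annotated genes in between, 11 have a row and 7 were tested, of which 5 were higher and 2 lower in Tbx21-KO cells. Over all genes tested 30.1% were higher and 23.0% lower. The genes in between were looked at after the values of the oxidase genes were known. Csf2rb, a chain of the receptors for interleukin-3, interleukin-5 and the granulocyte-macrophage growth factor, lies on the Ncf4 side, as does Csf2rb2. Csf2rb was at 37.8 and 37.6 FPKM in Tbx21-KO cells, against 2.13 and 2.24 FPKM in WT cells, a log2 fold change of 3.60 (limma adjusted p = 6.18e-06), and Csf2rb2 had a log2 fold change of 2.97. Tst, Kctd17 and Mpst were higher by 1.89, 0.80 and 0.75.

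Closer to Rac2 the genes went the other way. Il2rb, the beta chain of the receptors for interleukin-2 and interleukin-15, was at 464 and 452 FPKM in Tbx21-KO cells, against 835 and 823 FPKM in WT cells, a log2 fold change of -0.85 (limma adjusted p = 0.000148). C1qtnf6, beside it, had a log2 fold change of -1.29. Each of these 7 kept its direction under each of the 3 other scalings. Neighbours on this stretch thus differed in direction, with the smallest changes at the genes at either end.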
